A study of Mus musculus with 20 samples.

Results

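HPTE and estradiol (E2) were compared directly in the uterus of ovariectomized mice, 2 h after 1 injection of either compound. HPTE is the estrogenic metabolite of the pesticide methoxychlor and carries hydroxylated phenyl rings on a trichloroethane, whereas E2 is the steroid estrogen of the ovary. All mice were adult C57bl6/J females aged 10 weeks or more, and were given the compound subcutaneously in 100 µl sesame oil. The E2 2 h group received 250 ng E2 and the HPTE 2 h group received 750 µg HPTE, with 3 arrays in each. By mass the HPTE dose was 3000 times the E2 dose, and only 1 dose of each was given, so that compound and dose cannot be told apart. The comparison used 6 of the 20 arrays of the series, each hybridised in 1 colour with whole uterus RNA. The study mentions these arrays as a later repeat of its experiment on new samples. Their labels describe homogenizing every uterus by itself. The methods of the study describe pooled tissue and, for E2, injection in saline, with 2-colour arrays for E2, BPA and HPTE. Whether pooling also held for the repeat is not stated, so that the p-values measure the spread between these RNA samples. Of 41174 probes, 31056 were well above background on all 3 arrays of at least 1 of the groups and were tested. A vehicle group (sesame oil alone, 3 arrays) and a group given 750 µg BPA, the plastic monomer bisphenol A, for 2 h (3 arrays) are quoted beside some genes for orientation. For the vehicle group the labels give 24 h as the time.

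E2 acts in the uterus mainly through estrogen receptor α, a transcription factor of the epithelium, stroma and muscle that is activated by its ligand. The receptor binds estrogen response elements (EREs) in DNA directly, or reaches genes by tethering to other factors such as AP-1. In the first hours after a dose the uterus transcribes immediate early genes and growth regulators and its vessels become leaky, and in a later phase epithelial cells replicate their DNA and divide. A xenoestrogen is a foreign compound that engages the same receptor. It may also meet other receptors and the enzymes that clear foreign chemicals.

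Levels are given as log2 intensity after all arrays were brought to a common 75th percentile. Differences are HPTE minus E2 on the log2 scale, so that a value of 1 is a 2-fold higher level under HPTE. A probe is described as higher or lower where limma gave a Benjamini-Hochberg adjusted p under 0.05 over all probes tested. Across probes, arrays correlated with r between 0.979 and 0.989 within E2 2 h, between 0.991 and 0.994 within HPTE 2 h and between 0.973 and 0.986 across the groups. The median probe had a standard deviation of 0.154 within E2 2 h and 0.126 within HPTE 2 h. E2 2 h replicates 2 and 3 carried high levels of pancreas transcripts, as described further on with the marker genes. The 75th percentile was 1320, 1390 and 1703 intensity units on the E2 arrays and 1804, 1897 and 1983 on the HPTE arrays. Without scaling between arrays the median of all probes was therefore 0.36 higher under HPTE, and with scaling to the spike-in controls it was 0.31 higher, against -0.01 with the 75th percentile.

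HPTE and E2 differed for 5423 of the 31056 probes, 17.5% of those tested, of which 2777 (8.94%) were higher and 2646 (8.52%) lower under HPTE. Most of these differences were small, with a median size of 0.55. A difference of at least 2-fold was met by 1009 of them (450 higher, 559 lower) and one of at least 4-fold by 165 (87 higher, 78 lower). With 1 probe for each named gene, 2880 of 14978 genes (19.2%) differed, 1550 higher (10.3%) and 1330 lower (8.88%). The split between the directions rested on the scaling. Without scaling 11227 probes were higher and 589 lower, and under spike-in scaling 686 were higher and 167 lower. The count was 3107 with slide as a fixed term, 3582 without E2 2 h replicate 1, 3590 without HPTE 2 h replicate 2 and 3120 when E2 2 h was represented by replicate 1 alone.

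The largest increases under HPTE were those of Dok7, an adaptor that activates a receptor kinase at the neuromuscular junction, Trim15, a tripartite motif protein, and the sodium-hydrogen exchanger gene Slc9a2. They were followed by Pparg, which encodes the lipid-sensing nuclear receptor PPARγ. Transcripts for calcium handling (Cacna1h, Rem2), lipid droplets (Plin5) and collagen modification (P4ha2) were also among the 12 largest. These genes were chosen as the largest called differences whose arrays did not overlap, among probes well above background on all 6 arrays. Their separation is therefore part of their choice. Of all probes 17.2% were called and had arrays that did not overlap.

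Dok7 (chr5:34150293-34150352 on mm7, probe position) had levels of 8.15, 8.29 and 8.79 on the E2 arrays and of 12.33, 12.32 and 12.03 on the HPTE arrays. The difference was 3.82 (SE 0.44, n = 3 per group, adjusted p = 9.96e-05), a 14.1-fold higher intensity. On the vehicle arrays Dok7 lay at 6.64, 6.28 and 6.39, so the E2 level stood between vehicle and HPTE. The BPA levels of Dok7 were 11.62, 12.06 and 9.49. Trim15 (chr17:35012696-35012755) rose from 3.94, 4.46 and 4.86 under E2 to 8.04, 8.0 and 8.34 under HPTE, with a difference of 3.71 (SE 0.57, adjusted p = 0.000645). The size rested on the processing, with estimates from 1.83 to 4.19 over the alternatives.

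Slc9a2 (chr1:41010681-41010740) exchanges sodium for protons at the cell surface. Its levels were 8.42, 8.14 and 8.44 under E2 and 11.97, 12.09 and 11.73 under HPTE. The difference was 3.60 (SE 0.43, adjusted p = 0.00012), and the other probe of the gene gave 3.09. Vehicle arrays held 7.99, 7.64 and 7.54, so that E2 differed from vehicle by 0.61 (adjusted p = 0.334) and HPTE by 4.21. BPA arrays held 11.62, 11.86 and 9.38.

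Pparg (chr6:115515909-115515968) is the master regulator of fat cell formation and is also expressed outside fat. It lay at 10.06, 9.66 and 10.17 on the E2 arrays, near the vehicle levels of 9.69, 10.09 and 9.5. On the HPTE arrays it lay at 13.05, 13.28 and 12.94, a difference from E2 of 3.13 (SE 0.37, adjusted p = 0.000108) or 8.74-fold. The BPA arrays held 12.94, 13.21 and 11.19, the third of them between the E2 and the HPTE levels. Plin5, which coats lipid droplets and couples them to mitochondria, had levels of 7.47, 7.52 and 7.97 under E2 and 10.51, 10.10 and 10.14 under HPTE, with a difference of 2.60 (SE 0.35, adjusted p = 0.000279). Of 13 adipose markers tested none was called by limma, with a median difference of 0.57, and their summed intensity spanned 37080 to 68987 on the E2 arrays and 44075 to 116762 on the HPTE arrays. The part of fat tissue in the Pparg and Plin5 differences was not tested.

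P4ha2 (chr11:54088287-54088346) encodes a subunit of the prolyl hydroxylase that modifies collagen chains and was the most intense of the 12 probes. Its levels were 12.73, 12.77 and 12.78 under E2 and 15.63, 15.85 and 15.52 under HPTE, against 12.38, 12.26 and 12.26 on vehicle arrays. The difference was 2.91 (SE 0.41, adjusted p = 0.000362), with 2.48 from a second probe. On the BPA arrays P4ha2 lay at 15.51, 15.51 and 13.22. Heg1, a receptor at endothelial junctions, rose with one of the smallest errors, by 2.71 (SE 0.20, adjusted p = 5.33e-06). All 3 of its probes were higher under HPTE, by 1.34 to 2.71.

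Cacna1h, a T-type voltage-gated calcium channel, and Rem2, a small GTPase that inhibits calcium channels, were both higher by 2.60. For Cacna1h the SE was 0.29 and 3 of its 4 probes were called. For Rem2 the SE was 0.66 (adjusted p = 0.0135), and the call was lost without E2 2 h replicate 1. Amn, the partner of cubilin in vitamin uptake, was higher by 2.77, Smim5, a small membrane protein, by 2.72, and Nkpd1 by 2.62 (adjusted p = 0.000218, 0.000589 and 0.00428). Against vehicle, all 12 genes were higher under HPTE (differences of 2.56 to 6.19), whereas E2 differed from vehicle for 3 of them, Dok7 (1.97), Trim15 (2.48) and Rem2 (2.36). Both of these contrasts share the vehicle arrays, and each shares its treated arrays with the comparison above.

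**Figure D1:**
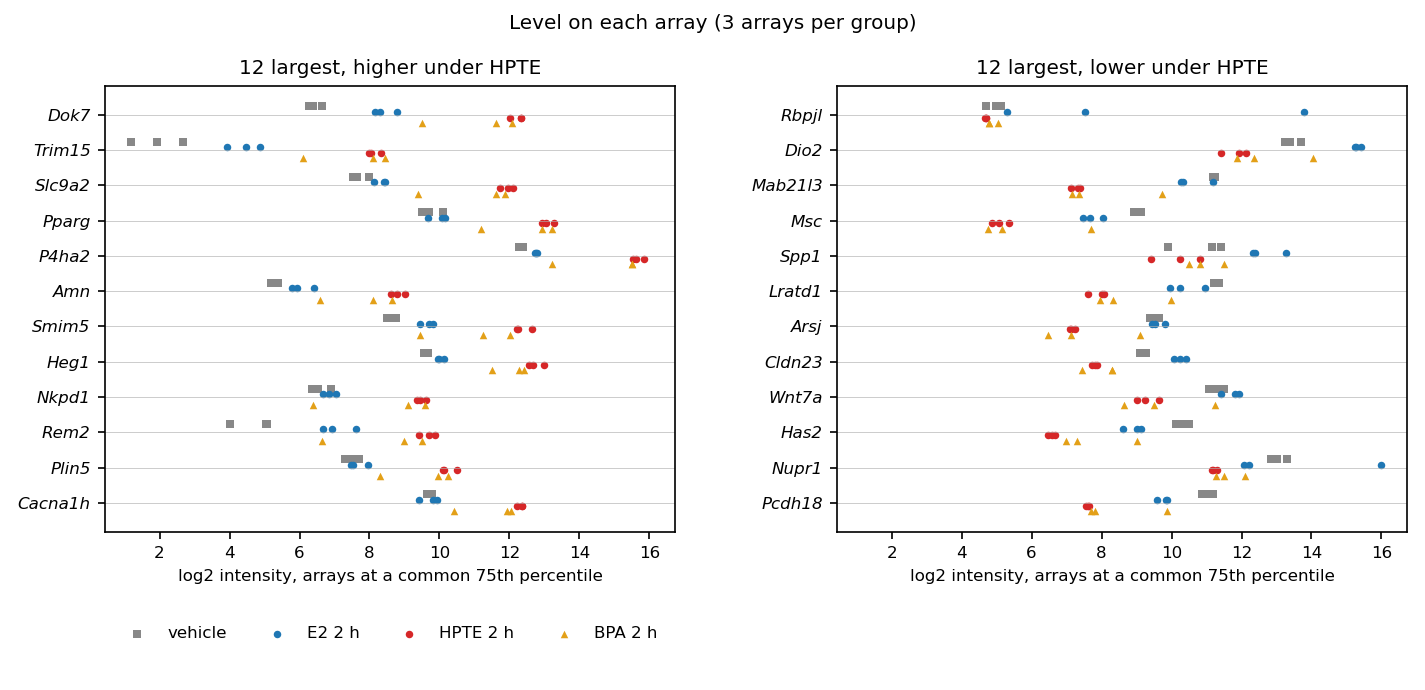
Level of the 12 largest increases (left) and the 12 largest decreases (right) of HPTE against E2 at 2 h, as log2 intensity on each of the 3 arrays of vehicle, E2, HPTE and BPA, with arrays at a common 75th percentile. For Pparg, Slc9a2 and P4ha2 the E2 arrays lie close to the vehicle arrays and the HPTE arrays lie apart, and for Rbpjl and Nupr1 1 or 2 E2 arrays lie far above the rest.

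The bases before the starts of these genes were searched because the receptor can bind DNA directly or through AP-1. RefSeq promoters on GRCm38.p6 were read over the 250 bases before each start, on both strands, for the ERE palindrome (GGTCA and TGACC with any 3 bases between), the ERE half-site AGGTCA, which lies inside part of those palindromes, and the AP-1 letters TGANTCA. Promoters were listed for 9 of the 12 genes that were highest and for 9 of the 12 that were lowest. No palindrome occurred among them, and 0.0666% of all 27025 genes held one. The half-site occurred before 5 of the 9 higher genes and before 0 of the 9 lower genes, against 15.8% of all genes, and the AP-1 letters before 1 and 0, against 7.82%. These matches are letters in a window and not sites at which binding was measured. The 30 bases around 1 half-site of each of the 5 genes are shown in the direction of transcription, with the half-site or its reverse complement in capitals, because these genes are among the largest increases.
Dok7, chr5:35056951-35056980, plus strand: tggtggagggccAGGTCAagctgcgggacg
Trim15, chr17:36867332-36867361, minus strand: gagtggagagctAGGTCAcctgcctgcccc
Pparg, chr6:115361104-115361133, plus strand: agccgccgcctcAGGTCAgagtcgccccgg
Nkpd1, chr7:19518675-19518704, plus strand: caagctgaacacTGACCTttccatgtagga
Plin5, chr17:56117701-56117730, minus strand: agtcctagtctgAGGTCAgccatggtgact

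Among the largest decreases were Dio2, the deiodinase that converts thyroxine into active thyroid hormone, the epithelial signalling ligand gene Wnt7a, the hyaluronan synthase gene Has2 and the tight junction gene Cldn23. In most of these genes the HPTE level lay below vehicle. Dio2 and Cldn23 differed from vehicle in opposite directions under the 2 compounds.

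Dio2 (chr12:88205395-88205454) had levels of 15.42, 15.23 and 15.28 under E2 and 12.12, 11.42 and 11.93 under HPTE. The difference was -3.48 (SE 0.38, adjusted p = 6.9e-05), an 11.2-fold lower intensity. Vehicle arrays held 13.24, 13.69 and 13.39, so E2 was higher than vehicle by 1.87 (adjusted p = 0.00175) and HPTE lower by -1.62 (adjusted p = 0.00224). Cldn23 (chr8:34590455-34590514), a claudin of tight junctions, stood at 10.41, 10.07 and 10.24 under E2 and 7.74, 7.80 and 7.86 under HPTE, a difference of -2.44 (SE 0.17, adjusted p = 5.33e-06). Its vehicle levels were 9.09, 9.26 and 9.27, between those of the compounds. On the BPA arrays Dio2 lay at 11.86, 12.35 and 14.03 and Cldn23 at 7.45, 8.30 and 8.30.

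Wnt7a (chr6:91447162-91447221), the Wnt ligand of the uterine epithelium, lay at 11.41, 11.80 and 11.94 under E2 and at 9.23, 9.02 and 9.63 under HPTE. The difference was -2.43 (SE 0.43, adjusted p = 0.00162), and its call was lost when E2 was represented by replicate 1 alone. Under E2 it differed from vehicle by 0.43 (adjusted p = 0.517) and under HPTE by -2.0 (adjusted p = 0.0013). On the BPA arrays Wnt7a lay at 8.64, 9.49 and 11.23, the last of them near vehicle. Has2 (chr15:56729040-56729099), which makes the matrix sugar hyaluronan, lay at 9.01, 9.14 and 8.61 under E2 and 6.58, 6.47 and 6.66 under HPTE, below the vehicle levels of 10.12, 10.51 and 10.28. It was lower by -2.35 (SE 0.36, adjusted p = 0.000589), while its other probe gave -0.75 and was not called.

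Mab21l3 fell by 3.30 (SE 0.46) and Pcdh18, a protocadherin of cell contacts, by 2.17 (SE 0.38), with adjusted p = 0.000341 and 0.00136. The transcriptional repressor gene Msc was lower by -2.63 and the arylsulfatase gene Arsj by -2.45 (adjusted p = 0.00282 and 0.00149). Lratd1 was lower by -2.49 on 1 probe and -2.52 on the other. Spp1, which encodes the secreted phosphoprotein osteopontin, was at 13.28, 12.38 and 12.34 under E2 and at 10.82, 9.41 and 10.23 under HPTE, with a difference of -2.51 (SE 0.61, adjusted p = 0.0111) that was not called without E2 2 h replicate 1 or HPTE 2 h replicate 2.

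The other 2 of the 12 decreases were highest on E2 replicate 2, the array with the most pancreas transcripts. Rbpjl, the transcription factor of pancreatic acinar cells, lay at 5.30, 13.78 and 7.52 on E2 replicates 1 to 3 and at 4.67, 4.71 and 4.71 under HPTE. Its difference of -4.17 (SE 1.35, adjusted p = 0.045) was lost under 11 alternatives, among them the fit without E2 2 h replicate 2 (-1.71). Nupr1, a stress-induced nuclear protein at 12.83 to 13.30 on vehicle arrays, lay at 12.22, 15.99 and 12.08 under E2 and at 11.17, 11.18 and 11.29 under HPTE, with a difference of -2.21 (SE 0.68, adjusted p = 0.0366) that was -0.93 without E2 2 h replicate 2. Summed pancreas markers on the same E2 arrays were 1715, 10034154 and 600047 intensity units. The part of pancreas RNA in these differences was not tested.

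Some genes were well above background on every array of 1 group and on none of the other, so that only a bound on the fold can be given, which takes the detection limit of the dim arrays as their level. Otop1, a proton channel, showed the largest such increase. Its HPTE levels were 7.69, 7.64 and 7.72, and the probe was not well above background on any E2 array, giving an at least 13.8-fold higher intensity (adjusted p = 2.37e-05). Shisal2b was at least 3.74-fold higher, the oocyte deiminase gene Padi6 at least 3.09-fold, the epithelial cytokine gene Il17c at least 2.99-fold and the cystatin gene Cst8 at least 2.83-fold. The calls of Il17c and Cst8 were each lost under 4 alternatives and that of Padi6 under 1, with E2 2 h replicate 1 alone. Cst8 is known from the male tract and also stood at 10.54, 9.07 and 8.81 on the vehicle arrays, which carried sperm transcripts.

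In the other direction, Tmem16b, a calcium-activated chloride channel, was at least 2.59-fold lower under HPTE (adjusted p = 7.89e-05). It stood at 5.23, 4.24 and 5.04 on the E2 arrays, close to vehicle (4.68, 5.26 and 4.57). Slco4c1, an organic anion transporter, was at least 4.51-fold lower (adjusted p = 0.0309) and Trim61 at least 2.39-fold (adjusted p = 0.0285), but both calls were lost under 10 alternatives. Dmbt1, a secreted mucosal glycoprotein, was at least 127-fold lower and Ccr4, a chemokine receptor, at least 3.73-fold. Their E2 levels were 3.92, 16.69 and 10.75 for Dmbt1 and 4.14, 7.67 and 4.29 for Ccr4, highest on the replicate with the most pancreas transcripts. The fitted difference of Dmbt1 was -7.35 with all arrays, -4.24 without E2 2 h replicate 2 and -0.82 with replicate 1 alone, so that the bound rests on replicates 2 and 3, and neither gene was called with E2 2 h replicate 1 alone.

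Of the transcripts that the study itself followed at 2 h, 17 were tested here, and 4 of them (23.5%, against 17.5% of all probes and 19.2% of named genes) differed between the compounds, all 4 higher under HPTE. Their median difference was 0.14, against -0.01 over all probes. The study chose these transcripts partly on arrays of the same treatments, so the list is not independent evidence. Against vehicle 12 of the 17 differed under E2 and 13 under HPTE, all of them higher.

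Ppp2r2c, a regulatory subunit of protein phosphatase 2A, showed the largest difference of the 4. It lay at 11.21, 10.99 and 11.30 under E2 and 12.94, 12.98 and 12.81 under HPTE, a difference of 1.75 (SE 0.27, adjusted p = 0.000587). Cdkn1a, the cell cycle inhibitor p21, lay at 11.11, 11.31 and 11.77 under E2 and 12.42, 12.72 and 12.38 under HPTE (difference 1.11, SE 0.32, adjusted p = 0.025), a call that ended under 8 alternatives. The cytokine-activated transcription factor gene Stat5a was higher by 0.76 (SE 0.18, adjusted p = 0.00917) and the Wnt ligand gene Wnt4 by 0.75 (SE 0.18, adjusted p = 0.01). The call of Stat5a was lost under 3 alternatives and that of Wnt4 under 2. With spike-in scaling only Ppp2r2c of the 4 kept its call. The arrays of the groups did not overlap for any of these 4. The same held for 37% of all probes and for 5349 of the 5423 called, so it adds little to the calls. By RT-PCR of wild-type uteri, the study reports Ppp2r2c and Wnt4 as less increased by HPTE than by estradiol. The direction on these arrays was the opposite for both genes. For Stat5a the study reports HPTE as more effective, the same direction as here, and for Cdkn1a as equally effective. The reason for the differing directions was not tested.

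The other 13 transcripts did not pass the threshold, and the width of their intervals shows what these arrays could resolve. Fos, a partner in the AP-1 dimer, stood at 13.37, 13.63 and 13.75 under E2 and 13.01, 12.67 and 12.93 under HPTE, against 8.13, 8.17 and 8.30 on vehicle arrays. Its difference was -0.71 with a 95% interval of -1.31 to -0.11 and an adjusted p of 0.0948. Nr4a1, an orphan nuclear receptor induced within minutes, differed by -0.14 (95% interval -0.36 to 0.07) between compounds that each raised it above vehicle by 4.44 (E2) and 4.30 (HPTE). For Inhbb, the activin subunit, the difference was 0.14 (-0.46 to 0.74), for the spindle checkpoint gene Mad2l1 0.13 (-0.40 to 0.65), and for Cyr61, a matricellular protein, 0.20 (-0.23 to 0.63). Errfi1, a feedback inhibitor of the EGF receptor, gave -0.30 (-0.78 to 0.18), and Gadd45g, a growth arrest gene that stood above 18 on all 6 arrays, gave -0.39 (-1.11 to 0.33). A 2-fold difference is inside the intervals of Fos and Gadd45g. The farther ends of the other intervals given here were -0.78 (Errfi1), 0.74 (Inhbb), 0.65 (Mad2l1), 0.63 (Cyr61) and -0.36 (Nr4a1).

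**Figure D2:**
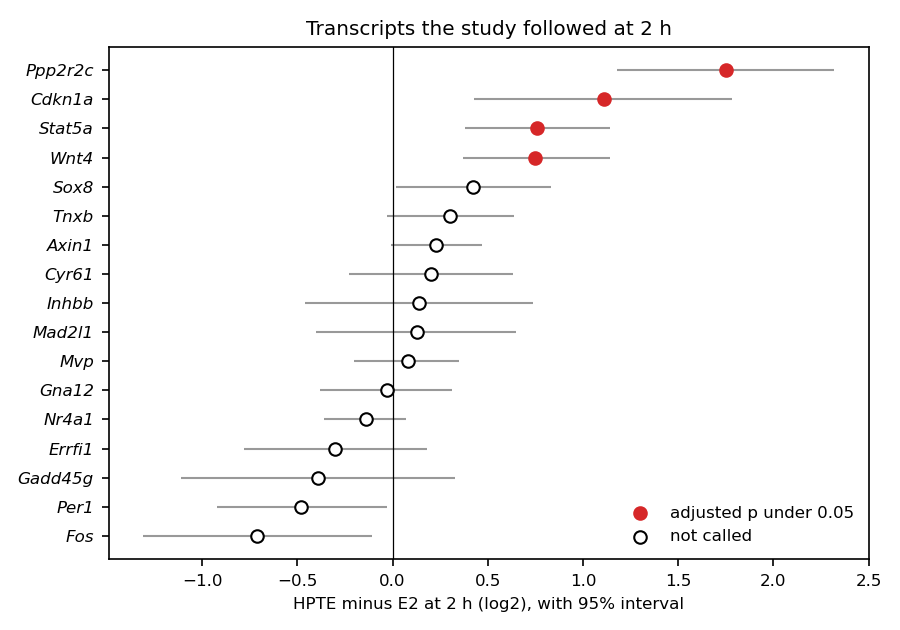
Difference between HPTE and E2 at 2 h (log2) for the 17 transcripts followed by the study at 2 h, each with its 95% interval from limma, with filled points where the adjusted p was under 0.05. Ppp2r2c, Cdkn1a, Stat5a and Wnt4 lie to the right of 0, and 13 open points lie between -0.71 (Fos) and 0.42 (Sox8).

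The gene lists that follow are to be read against all named genes, of which 19.2% were called, 10.3% higher and 8.88% lower. Immediate early genes were called in 37.5% of cases, 4 higher and 5 lower of 24 tested, with a median difference of -0.07. Without scaling 5 were higher and 1 lower, and with spike-in scaling 2 and 0. Myc, the growth-promoting transcription factor, differed most among the decreases, with levels of 13.88, 13.09 and 13.32 under E2 and 12.04, 12.31 and 11.89 under HPTE. The difference was -1.35 (SE 0.22, adjusted p = 0.000847), and its 3 probes gave -1.37 to -1.25. Against vehicle Myc was 1.34 higher under E2, and its fitted difference under HPTE rounded to 0.00. The AP-1 member Jun fell by 0.50, and Egr1, Klf2 and Klf4, zinc finger factors of the first hour, fell by 0.36, 0.36 and 0.31.

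The 4 members that were higher included Srf, the serum response factor that drives many of these genes, at 14.09, 14.13 and 14.36 under E2 and 15.07, 15.26 and 14.99 under HPTE (difference 0.91, SE 0.12, adjusted p = 0.000174). The AP-1 members Fosl1 and Jund were higher by 1.58 and 0.55 and the small Maf factor Maff by 0.62. Among feedback inhibitors of MAPK and EGFR signalling, 3 of 16 were higher and 1 lower. The MAP kinase phosphatase genes Dusp8 and Dusp10 were higher by 0.84 and 0.52 and Spred3 by 0.71, and Spry1 fell by 1.10. These calls were lost under 5 (Dusp8), 6 (Dusp10), 11 (Spred3) and 5 (Spry1) alternatives, and under spike-in scaling none of the 16 was called. Of 20 EGF and IGF ligands and receptors, Hbegf (0.63) and Egfr (0.35) were higher. The EGF receptor ligand gene Btc (-1.12), the insulin receptor substrate gene Irs1 (-1.16) and the uterine growth factor gene Igf1 (-0.82) were lower.

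Of 33 known estrogen targets of the uterus, 6 were higher and 6 lower (36.4% called, against 19.2% of named genes), with a median of -0.09. This split rested on the scaling, with 9 higher and 3 lower without scaling and 3 and 1 with spike-in scaling. Aqp5, a water channel of the glands, lay at 13.93, 14.06 and 14.36 under E2 and 15.57, 15.50 and 15.48 under HPTE, a difference of 1.40 (SE 0.30, adjusted p = 0.00561). Greb1, a cofactor of the estrogen receptor, lay at 11.81, 12.02 and 12.25 under E2 and 13.17, 13.38 and 13.17 under HPTE (difference 1.22, SE 0.17, adjusted p = 0.000328). Pthlh, the parathyroid hormone-related peptide, was higher by 1.25, creatine kinase B (Ckb) by 0.73 and Hif1a, the oxygen-responsive factor, by 0.47. The decreases were Wnt7a, Cited2 (-1.19), a transcriptional cofactor, Wnt5a (-1.01), Igf1, Calb1 (-0.68), a calcium-binding protein, and the progesterone receptor gene Pgr (-0.41). The estrogen receptor gene Esr1 differed by -0.09 (SE 0.19, adjusted p = 0.802).

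Of 40 Wnt pathway genes 8 were lower and 3 higher (27.5% called, against 8.88% of named genes lower and 10.3% higher), with a median of -0.14. The frizzled receptor genes Fzd10 and Fzd1 fell by 1.61 and 1.56. Fzd1 lay at 12.51, 12.24 and 12.23 under E2 and 10.73, 10.88 and 10.69 under HPTE. The stem cell factor Rspo3 fell by 1.25 and the Wnt antagonists Dkk2 and Dkk3 by 0.94 and 0.44. Wnt7b (1.70), Wnt4 and the transcription factor Tcf7 (0.64) were the 3 that were higher, so that the 2 closely related ligands Wnt7a and Wnt7b moved in opposite directions. With no scaling the same list had 8 higher and 3 lower, with spike-in scaling 1 and 1, and with E2 2 h replicate 1 alone 3 and 2.

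Of 41 genes of TGF-β, BMP and activin signalling, 5 were higher and 7 lower (29.3% called, median -0.14). Smad6, the inhibitory Smad, was higher by 1.34 (SE 0.24, adjusted p = 0.00178) and Smad3, a signal transducer, by 0.72. Bmp3 (-1.29), Id2 (-1.01), a target of BMP signals, and the receptor gene Acvr2b (-0.71) were lower. Without scaling the counts of this list turned to 9 higher and 2 lower, and with E2 2 h replicate 1 alone they were 3 and 2.

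Tissue kallikreins, secreted serine proteases, were higher where they were called. Of 19 members tested 4 were higher and 0 lower, 21.1% against 19.2% of named genes, so that the share called was near that of all genes. The median of all 19 was 1.01. Klk1b27 lay at 8.14, 8.90 and 9.06 under E2 and 10.99, 11.12 and 10.93 under HPTE, a difference of 2.32 (SE 0.44, adjusted p = 0.00245). Klk1b26 differed by 2.28 (SE 0.42), Klk1b24 by 1.78 (SE 0.37) and Klk1b9 by 1.54 (SE 0.51, adjusted p = 0.0474), the last of which lost its call under 9 alternatives. Members of this family are near-identical in sequence and their probes can detect each other, so these are not separate measurements. Klk1, the kallikrein of pancreas and salivary gland, lay at 9.30, 16.45 and 11.18 on E2 replicates 1 to 3 and at 13.50, 13.60 and 13.56 under HPTE, so that E2 replicate 2, the array with the most pancreas transcripts, was above the HPTE arrays and the others below. Its difference of 1.24 (SE 1.20, adjusted p = 0.539) was not called. Klk1b21 was likewise highest on E2 replicate 2, at 10.56 against 6.82 and 7.41. With E2 2 h replicate 1 alone, 10 members were called, all higher, and the median was 2.39, and with slide as a fixed term the median was 0.45.

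Nuclear receptors and coregulators held 4 higher and 6 lower members of 34 tested, 29.4% against 19.2% of named genes, with a median that rounded to 0.00. Without scaling 16 were higher and 0 lower, and with spike-in scaling 3 and 0. Beside Pparg, its sister receptor gene Ppara, which drives fat oxidation, was higher by 0.50. Nr0b2, the small heterodimer partner, was higher by 1.28, a call lost under 7 alternatives. The thyroid hormone receptor gene Thra fell by 0.84, the orphan receptor gene Nr2f2 by 0.76 and the glucocorticoid receptor gene Nr3c1 by 0.39. Of 19 glucocorticoid-responsive genes, 0 were higher and 3 lower (15.8% called, below the 19.2% of named genes), namely Nr3c1, Tsc22d3 (-0.94), the leucine zipper protein GILZ, and the metallothionein gene Mt2 (-0.75). Their calls were lost under 9, 4 and 10 alternatives, and without scaling 2 of the list were higher and 0 lower.

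Among enzymes that clear foreign chemicals, 2 of 25 phase 1 genes were higher and 4 lower (24% called), and of 35 phase 2 genes and transporters, 3 were higher and 6 lower (25.7% called, against 19.2% of named genes). The directions rested on the scaling. Without it phase 1 had 3 higher and 1 lower and phase 2 had 5 and 0, and with spike-in scaling they had 1 and 0, and 2 and 0. Cyp2s1, an extrahepatic cytochrome P450, lay at 11.50, 11.49 and 11.79 under E2 and at 13.35, 13.31 and 13.44 under HPTE, a difference of 1.77 (SE 0.17, adjusted p = 4.28e-05). The estrogen hydroxylase gene Cyp1b1 fell by 2.02 (SE 0.64, adjusted p = 0.0399), a call lost under 13 alternatives, and the dioxin receptor gene Ahr and its repressor Ahrr fell by 0.70 and 0.50. The glutathione transferase genes Gsta1 and Gsta2, which are close in sequence, were higher by 1.71 and 1.66. Sult1d1, a sulfotransferase, was lower by -0.83, a call lost under 7 alternatives, although under E2 it stood 1.13 above vehicle. In the Nrf2 list, a set of antioxidant genes, 2 of 26 were higher and 3 lower, the same 19.2% as over named genes. Heme oxygenase, Hmox1, was the largest of these with levels of 11.56, 10.81 and 10.32 under E2 and 9.84, 9.17 and 9.82 under HPTE (difference -1.28, SE 0.35, adjusted p = 0.0198), and its call was lost under 5 alternatives, among them those without E2 2 h replicate 1 and without HPTE 2 h replicate 2.

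Heat shock and ribosome biogenesis genes that were called were all higher under HPTE. For heat shock chaperones and their partners this was 9 of 20 (45% called, 0 lower, median 0.24), and for ribosome biogenesis 13 of 38 (34.2% called, 0 lower, median 0.22), where 10.3% of named genes were higher. The differences were small. Hspa4l, a chaperone of the Hsp110 family, was higher by 0.88 (SE 0.23), Hspb8 by 0.70 (SE 0.13), the steroid receptor cochaperone Fkbp4 by 0.66 (SE 0.13) and Hsph1 by 0.47 (SE 0.09). Hsp90aa1, Hsp90ab1 and Hspa8, the most abundant cytosolic chaperones, differed by 0.10, -0.03 and 0.09 and were not called. Bysl, which matures the small ribosomal subunit, was higher by 0.55, and Nop2, Ddx21 and Utp4, factors of the nucleolus, by 0.48 each. Utp4 lay at 10.35, 10.39 and 10.48 under E2 and 10.86, 10.87 and 10.93 under HPTE. Its SE was 0.08, against a median of 0.142 over all probes, and it was named because it was called. Under spike-in scaling 1 heat shock gene and 0 ribosome biogenesis genes were called, and with slide as a fixed term 5 and 7, with 0 lower in each. With E2 2 h replicate 1 alone the counts were 2 and 12.

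Other biosynthetic and stress lists showed fewer calls. Of 24 cholesterol synthesis genes 5 were higher and 1 lower (25% called, median 0.17), and with spike-in scaling none was called. Cyp51 (0.70), Dhcr7 (0.68), Fdft1 (0.67) and Sqle (0.55) were among those higher, calls lost under 7, 2, 4 and 11 alternatives, and Ebp (-0.23) was lower. Of 30 genes of the integrated stress response and the unfolded protein response, 4 were higher and 1 lower (16.7% called, below the 19.2% of named genes). The transcription factor gene Atf4 was higher by 0.87 (SE 0.15, adjusted p = 0.00162), the amino acid transporter gene Slc7a5 by 1.16 (SE 0.20), the stress sensor Ern1 by 0.59 (lost under 9 alternatives), and the stress-induced gene Sesn2 by 1.56 on 1 probe and by 0.18 on another that was not called.

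**Figure D3:**
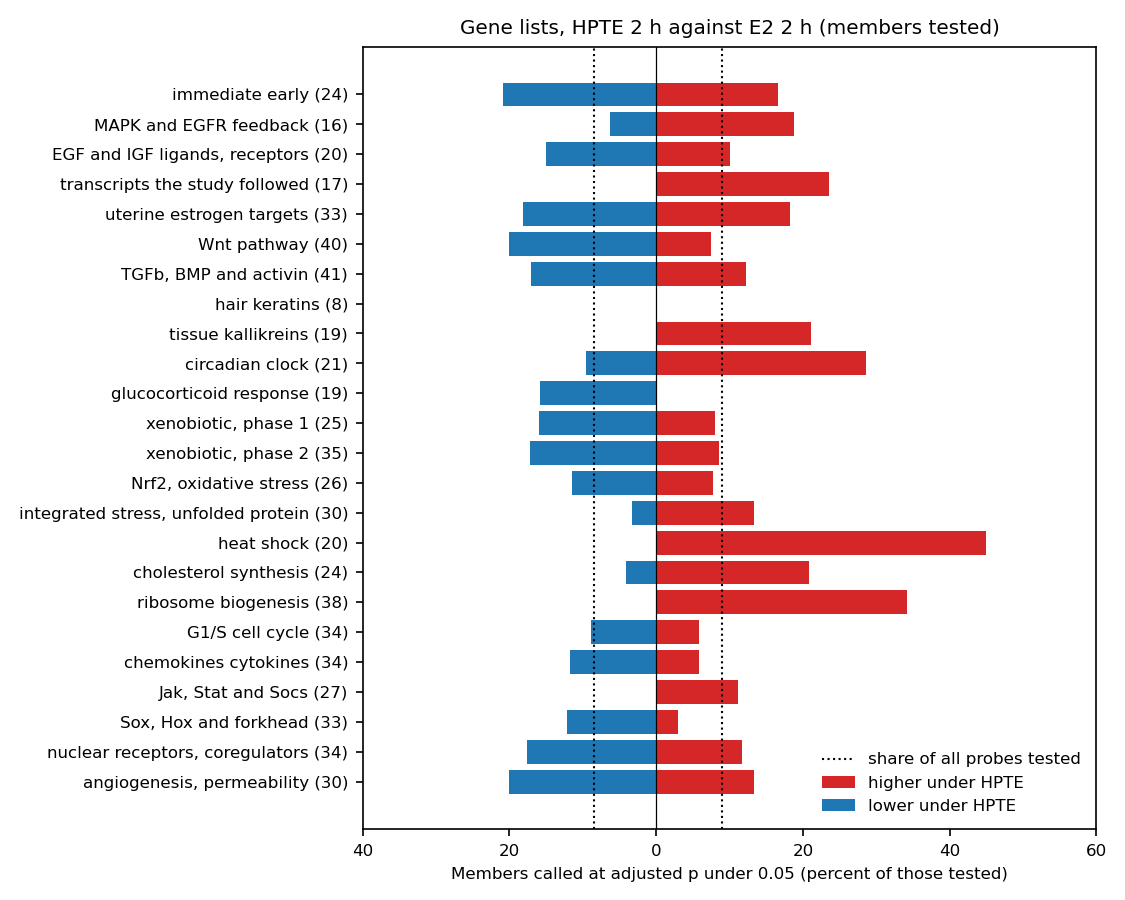
Share of members called higher (to the right) or lower (to the left) under HPTE against E2 at 2 h in each gene list, as percent of the members tested, whose number follows the name. Dotted lines mark the shares over all probes, 8.94% higher and 8.52% lower, and the heat shock (45%) and ribosome biogenesis (34.2%) lists hold higher members only.

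Circadian clock genes were called in 8 of 21 cases (38.1%, against 19.2% of named genes), 6 higher and 2 lower, with a median of -0.01. Without scaling 10 were higher and 0 lower, and with spike-in scaling 3 and 0. Usp2, a clock-regulated deubiquitinase, lay at 10.97, 11.08 and 11.14 under E2 and 12.06, 12.04 and 11.87 under HPTE, a difference of 0.93 (SE 0.09, adjusted p = 4.28e-05). The clock repressor genes Cry2 and Per2 were higher by 0.92 and 0.82, each on 1 of its 2 probes. Nr1d1, the repressor REV-ERBα, fell by 0.77 on 1 of 3 probes, while the highest of the 3 gave 0.10, and the call was lost under 10 alternatives. The hour of collection was not given in the labels, and its part in these values was not tested.

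Of 34 genes of the G1 to S transition, 2 were higher and 3 lower (14.7% called, below all named genes), Cdkn1a and Btg3 (0.31) against the antiproliferative gene Btg1 (-0.71), the inhibitor Cdkn1b (-0.56) and the replication helicase gene Mcm7 (-0.32). Mcm7 gave 0.05 without scaling and was close to 0 with spike-in scaling. Of 27 Jak, Stat and Socs genes, Stat5a, Stat5b (0.55) and Pias1 (0.29) were higher, and 0 were lower, 11.1% in all, and with spike-in scaling none was called. Of 34 cytokines and chemokines, 2 were higher and 4 lower (17.6%). Il15, the lymphocyte growth factor, lay at 9.21, 9.09 and 9.01 under E2 and 7.43, 7.40 and 7.37 under HPTE, a difference of -1.71 (SE 0.20, adjusted p = 0.00012), while its other probe gave -0.35 and was not called. Csf3, the granulocyte colony-stimulating factor, fell by 1.07 (SE 0.12, adjusted p = 8.96e-05).

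Sox, Hox and forkhead genes had 1 higher and 4 lower members of 33 (15.2%), with a median of -0.26, and none was called with spike-in scaling. Sox4 lay at 11.55, 11.65 and 11.53 under E2 and 10.24, 9.99 and 10.32 under HPTE (difference -1.39, SE 0.29, adjusted p = 0.00419). Sox11 gave -1.34 on its brightest probe, but 1 of its other 3 probes gave 1.94, so no direction is given for it. Of 30 genes of vessel growth and permeability, 4 were higher and 6 lower (33.3%), against 8 and 0 without scaling and 1 and 0 with spike-in scaling. Among these the urokinase receptor gene Plaur was higher by 0.63 and endothelial nitric oxide synthase, Nos3, by 0.58. Thrombospondin 1, Thbs1, fell by 0.93 and the lymphatic growth factor gene Vegfc by 0.43. The calls of Thbs1 and Plaur were lost under 12 and 10 alternatives. Hair keratins, tested for 8 genes, had no member called by limma (median -0.28), and 4 of the 8 had arrays that did not overlap, against 37% of all probes.

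Markers of uterine cell types showed the defining genes of the labelled tissue on every array. All 15 smooth muscle, 18 epithelial and 15 stromal markers were well above background on all 6 arrays. Of 15 smooth muscle markers 5 were higher under HPTE (33.3%, against 10.3% of named genes) and 0 lower. They were Lmod1 (0.75), Des (0.68), Synpo2 (0.55), Cnn1 (0.53) and Tpm1 (0.33). The calls of Des, Synpo2 and Cnn1 were lost under 3, 2 and 6 alternatives, spike-in scaling among them for each. Summed smooth muscle intensity was 1308893 to 1391979 under HPTE, against 1060258 to 1219445 under E2. Of 18 epithelial markers 4 were lower (22.2%, against 8.88% of named genes), namely Wnt7a, Cldn4 (-1.25, lost under 13 alternatives), Cldn3 (-1.04) and Krt19 (-0.52), with sums of 148052 to 161929 against 193596 to 207507. Without scaling 2 epithelial markers were higher and 2 lower (median -0.01), and with spike-in scaling 0 and 1. Of 15 stromal markers 4 were lower (26.7%), namely Wnt5a (lost under 8 alternatives), Igf1, Lum (-0.45, lost under 13) and the matrix proteoglycan Dcn (-0.26, lost under 10), with sums of 539935 to 575532 against 677427 to 799520. Without scaling 1 stromal marker was higher and 1 lower (median -0.08), and with spike-in scaling none was called. Dcn, one of the most intense probes with levels of 18.08 to 18.47, gave 0.11 without scaling and 0.02 under quantile normalization. For endothelium 2 of 15 were lower (13.3%, against 8.88% of named genes), Cldn5 (-0.46) and Egfl7 (-0.35), the latter at 0.03 without scaling. In whole uteri, fewer cells of a type and less RNA per cell cannot be told apart, and the part of these marker shifts in the gene differences was not tested.

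Markers of tissues other than the uterus also differed. Of 16 pancreas markers tested 13 were lower under HPTE (81.2%, against 8.88% of named genes). Ctrc, a digestive protease, lay at 5.62, 19.24 and 15.94 on E2 replicates 1 to 3 and at 4.49, 4.47 and 5.19 under HPTE, a difference of -8.88 (SE 2.20, adjusted p = 0.0122), and 0 of the 16 were called with E2 2 h replicate 1 alone or in a fit of the 6 arrays alone. Summed pancreas markers were 1461 to 2288 on the HPTE arrays and 1947 to 2341 on vehicle arrays. Sperm markers were higher under HPTE for 7 of 19 (36.8%, against 10.3% of named genes). Their sums were 3048 to 5548 under E2, 6760 to 15297 under HPTE and 72195 to 241972 on vehicle arrays. Prm1, a protamine that packs sperm DNA, lay at 8.44, 9.58 and 10.20 under E2 and 12.37, 11.12 and 10.75 under HPTE, by 2.01 higher (SE 0.55, adjusted p = 0.0206). With slide as a fixed term, or in a fit of the 6 arrays alone, 0 of the sperm markers were called, and with E2 2 h replicate 1 alone 3. Of 17 skeletal muscle markers 2 were higher and 1 lower (17.6% called, below the 19.2% of named genes). The largest of them, Myh7, the slow and cardiac myosin heavy chain, lay at 7.71, 7.85 and 7.97 under E2 and 11.07, 10.86 and 10.98 under HPTE (difference 3.13, SE 0.60, adjusted p = 0.00253), 3.14 on its other probe. Its sequence is close to that of the cardiac gene Myh6. None of the 23 lymphoid and 15 myeloid markers was called by limma.

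**Figure D4:**
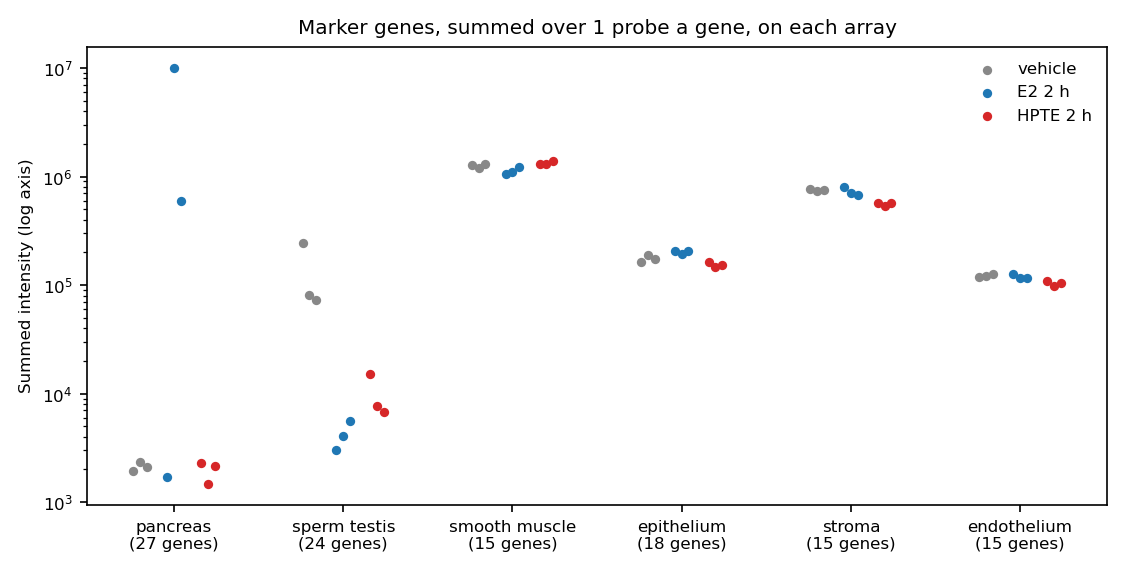
Summed intensity (log axis) of marker genes of 6 tissues or cell types on each of the 3 arrays of vehicle, E2 2 h and HPTE 2 h, with 1 probe for each gene and the number of genes under each name. Pancreas sums reach 10034154 and 600047 on 2 E2 arrays and stay between 1461 and 2341 on the other 7, sperm sums are highest on vehicle, and smooth muscle, epithelial and stromal sums lie within a narrow band on the log axis.

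The same contrast at 24 h was measured on other arrays (3 HPTE, 2 E2), which allowed each difference to be compared between times. At 24 h, 15695 probes differed between HPTE and E2 (50.5% of those tested, 28.2% higher and 22.3% lower), and the difference itself changed between 2 h and 24 h for 14801 (47.7%). Of the 24 largest differences at 2 h, 6 were also called at 24 h. For 19 of the 24 the difference changed between the times. These genes were chosen by size on the 2 h arrays, which also enter the test of change. A smaller difference at 24 h is therefore favoured by the choice. Pparg gave 0.09 (SE 0.41, adjusted p = 0.883) at 24 h against 3.13 at 2 h, a change of -3.04 (SE 0.55, adjusted p = 0.000347). Heg1 gave 0.01 and Mab21l3 0.01 at 24 h, with changes of -2.70 and 3.31.

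A few genes kept a difference at 24 h. Slc9a2 was higher under HPTE by 2.40 (SE 0.48, adjusted p = 0.00071), and its change between the times, -1.20, did not pass the threshold (adjusted p = 0.142). Its mean level at 24 h was 7.82 under HPTE, near the vehicle mean of 7.72, and 5.43 under E2, against an HPTE mean of 11.93 at 2 h. Dio2 was lower by -2.06 (SE 0.42, adjusted p = 0.000789) and Cldn23 by -1.11 (SE 0.19, adjusted p = 0.000228). Mean Dio2 levels at 24 h were 13.36 under HPTE and 15.42 under E2, against 13.44 on vehicle arrays. For Cldn23 they were 9.88 under HPTE and 10.99 under E2, against 9.21 on vehicle arrays. Trim15 and P4ha2 turned, to -4.07 (SE 0.64, adjusted p = 8.36e-05) and -1.36 (SE 0.45, adjusted p = 0.0207) at 24 h. Among the transcripts followed by the study, Ppp2r2c also turned, from 1.75 to -2.41 (SE 0.30), a change of -4.16 (SE 0.40, adjusted p = 1.38e-06).

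**Figure D5:**
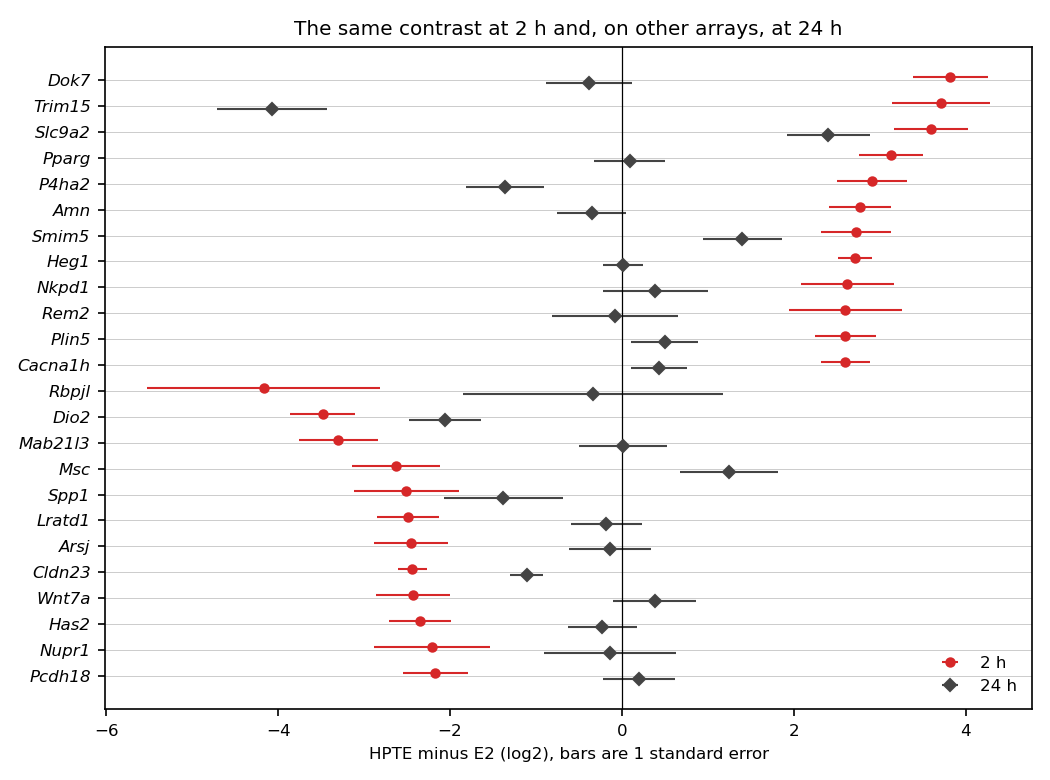
Difference between HPTE and E2 (log2, with bars of 1 standard error) for the 24 largest differences at 2 h, at 2 h (circles) and on other arrays at 24 h (diamonds). Most diamonds lie near 0, those of Slc9a2 (2.40) and Dio2 (-2.06) stay on the side of the 2 h value, and those of Trim15 (-4.07) and P4ha2 (-1.36) cross it.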

How the data were processed

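Uterine RNA of 7 groups (20 arrays on 6 slides) was labelled with Cy3 and hybridised to Agilent 4 x 44K mouse arrays. The deposited values are spot intensities from the scanner output, which the authors background-corrected with Agilent Feature Extraction (version 9.5, per the submitters' processing notes) but did not scale between arrays. Other deposited columns used were the flags for spots well above background, the mean and background signals and the probe positions (mm7, per the file headers). In the labels, the tag for treatment holds the time and that for time the treatment. Groups were taken from the values.

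The processed intensity was averaged over the spots of a probe, divided by the 75th percentile of its array and put on the log2 scale. The number of arrays limits the precision. A means model over all 7 groups was fitted with limma 3.58.1 in R 4.3.3, two-sided, with Benjamini-Hochberg adjustment over 31056 probes and a threshold of 0.05, and was tested on simulated data. Control spots were left out. Genes were named from the array annotation updated through RefSeq, 22951 of 25510 probes with a RefSeq accession being matched. For each gene the tested probe with the highest mean over the 6 arrays was used. Where a probe was not well above background on any array of 1 group, the fold is a lower bound, from the mean of the bright group against the mean, over the dim arrays, of the higher of the probe's own level and the lowest level well above background.

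Named genes were first the 12 largest called differences in each direction with arrays that did not overlap, among probes well above background on all 6 arrays. The others were the 5 largest bounds in each direction, the transcripts that the study followed at 2 h, and up to 4 called members with the largest differences of each list. Names of clones and predicted genes, and markers of pancreas, sperm, liver, fat, skeletal muscle, ovary, blood and lymphoid cells, took no place in the first 2 rankings. Members named beyond these were chosen after their values were seen, and a few list members are not reported here. The comparison, its members and the lists were chosen with earlier results of these data known. Alternatives were other scalings and background correction, other filters, the 6 arrays alone, slide and replicate number as terms, array weights, trended moderation, leaving out each 2 h array of E2 or HPTE, and E2 2 h represented by replicate 1 alone, the last chosen after seeing the data.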

Additional observations from a re-analysis of the deposited data

Results flagged for a closer look

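For 36 genes the difference between HPTE and E2 was not the same at 24 h as at 2 h. This rests on limma's test of the difference between the times (adjusted p under 0.05, as for 47.7% of all probes). The 36 come from the 12 largest differences in each direction, the genes with a bound and the transcripts that the study followed. Other list members that passed, such as Bysl and Greb1, are not counted. The rankings were made on the 2 h arrays, which also enter this test. Values are the 24 h difference minus the 2 h difference on the log2 scale. Among the 12 largest increases at 2 h they were -4.20 for Dok7, -7.78 for Trim15, -3.04 for Pparg, -4.27 for P4ha2, -3.12 for Amn, -2.70 for Heg1, -2.23 for Nkpd1, -2.67 for Rem2, -2.10 for Plin5 and -2.16 for Cacna1h. Among the 12 largest decreases they were 1.43 for Dio2, 3.31 for Mab21l3, 3.89 for Msc, 2.32 for Lratd1, 2.31 for Arsj, 1.33 for Cldn23, 2.81 for Wnt7a, 2.12 for Has2 and 2.37 for Pcdh18.

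For genes with a bound at 2 h the values were -6.08 for Otop1, -2.36 for Shisal2b, -2.92 for Padi6, 4.28 for Slco4c1, 3.29 for Ccr4, 3.72 for Tmem16b and 2.94 for Trim61. For transcripts that the study followed they were -1.22 for Stat5a, -1.99 for Inhbb, -1.54 for Mad2l1, -4.16 for Ppp2r2c, -1.96 for Cdkn1a, 0.42 for Nr4a1, -1.0 for Cyr61, -0.49 for Axin1, 1.62 for Per1 and 1.17 for Tnxb. The E2 24 h group had 2 arrays, and its summed pancreas markers were 16646 and 44695 intensity units, against 1579 to 2578 on the HPTE 24 h arrays. The part of pancreas RNA in these values was not tested.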

How the results depend on the processing

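Against 5423 probes called at 2 h, the count was 11816 without scaling (11227 higher, 589 lower), 853 with spike-in scaling (686, 167), 3107 with slide as a fixed term, 8894 with array weights, 1009 with a difference of at least 2-fold and 3120 with E2 2 h by replicate 1 alone. Leaving out 1 array gave 3582 (without E2 replicate 1) to 4715, and 3590 without HPTE replicate 2. Of 781 list members tested, 190 were called, against 49 with spike-in scaling, 116 with slide as a fixed term, 287 with array weights, 104 with E2 replicate 1 alone, and 116 (without HPTE replicate 2) to 153 with 1 array left out, 117 without E2 replicate 1. Of 156 named genes, 143 were called, against 67 with spike-in scaling, 88 with E2 replicate 1 alone and 101 to 127 with 1 array left out. For the change between times, 14801 probes became 7152 with spike-in scaling (922 higher at 24 h, 6230 lower) and 13853 to 14249 with a 2 h array left out. Without scaling they were 13495, split 2598 and 10897 against 8114 and 6687. The causes were not tested.

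Replicate numbers did not pair the arrays (correlations of same-numbered deviations -0.0922, -0.0843 and -0.00603). With the replicate number as a block the counts were 5031 probes over all 20 arrays and, over the 6 arrays alone, 1351 probes, 49 list members and 65 named genes. The change between times gave 14356.

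Reversals at 2 h without scaling gave Errfi1 0.08, Nr4a1 0.23, Gna12 0.34, Mcm7 0.05, Gdf9 0.03, Dcn 0.11 and Egfl7 0.03, and with spike-in scaling Errfi1 0.02, Nr4a1 0.18, Gna12 0.29, Mcm7 0.0012 and Dcn 0.06. The change of Nr4a1 between times was -0.09 and -0.23 under these. Quantile normalization gave Gna12 0.03 and Dcn 0.02, and normexp gave Mvp -0.03. Mvp was -0.01 with array weights, -0.01 without E2 replicate 1 and -0.02 without HPTE replicate 3, the lowest of a range that reached 0.14. Gna12 was 0.08 without E2 replicate 3 and 0.06 without HPTE replicate 2, in a range from -0.15 to 0.08. With E2 replicate 1 alone Nr4a1 was 0.08 and Gna12 0.20. Inhbb was -0.003 with slide as a fixed term.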
